A study of Mus musculus with 5 samples.

Results

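The comparison of RUN with LD set the dentate gyrus (DG) of mice that could run against the DG of mice that could not. Its members were the 13550 genes with a mean value of at least 5 over the 5 libraries, called expressed here, of 23420 gene symbols in all, and the measure was the RUN value minus the LD value of each gene. All were male wild-type CD1 mice, an outbred strain and labelled as 4 months old. LD and RUN mice lived singly for 4 weeks with a disk that was glued fast (LD) or turned freely (RUN), and CE mice lived in groups of 3 with a locked disk and tunnels that were moved daily. RNA was extracted from the microdissected DG of single mice and then pooled, with 8 mice in LD, RUN and CE, while L-RUN and H-RUN were pools of the 4 RUN mice with the shortest and the 4 with the longest running distances. There was 1 library per pool and thus no replicate of any group, so that no difference between RUN and LD could be tested and no p-value is given.

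The deposited values are regularized log (rlog) values, which are normalized counts on the log2 scale after shrinkage of each gene towards its mean, so that a difference of 0.3 is an increase of about 23.1% and small differences of weakly detected genes are drawn towards 0. A gene is said to have risen or fallen when RUN and LD differed by 0.3 or more, and lists are also described at 0.15. The error that could be measured was the technical SD of a difference, 0.0365 over all expressed genes and 0.022 to 0.047 across the deciles of expression, taken from the agreement of the RUN library with L-RUN and H-RUN, which held RNA of the same mice. It measures noise from making and sequencing a library and nothing of the differences between mice. RUN is a mixture of the mice of L-RUN and H-RUN, so its value is expected between theirs. Agreement of the runner libraries therefore includes no further mice beyond those pools. The depth of the libraries is unknown.

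The DG is the gate of the hippocampus. Its granule cells receive the perforant path from the entorhinal cortex, send mossy fibers to CA3, and are replaced in small numbers throughout life by neurons born from radial glia-like progenitors at the inner edge of the layer. Voluntary running is known as a strong stimulus for this adult neurogenesis and for the growth factors and neuropeptides of granule cells. The DG lies under a fold of leptomeninges in the hippocampal fissure and next to CA1, so that both can be carried along when it is dissected.

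Across the whole range, RUN minus LD ran from -0.58 for Nos1 to 1.34 for Ptgds, with a median of -0.0013, an SD of 0.101 and quartiles of -0.064 and 0.056. In all, 49 genes rose (0.362% of those expressed) and 129 fell (0.952%), 574 were higher by 0.15 or more (4.24%) and 954 were lower by 0.15 or more (7.04%). The range was lopsided in shape as well as in number. Of the rises, 6 were of at least 0.5, led by 2 genes that stood clear of all others, while the falls were many and similar, with 8 of at least 0.5. The weakest rise was Baiap3 (0.3006) and the weakest fall Cdr1 (-0.301), and just short of 0.3 stood Blnk (0.2981) and Dpy19l1 (-0.2996). No gene of the lowest decile of expression passed 0.3, and between 1.03% and 2.07% of the genes in each of the other deciles did. At the lower limit of expression, Cubn stood just outside, with a mean of 4.999, and Pcdhb6 just inside, with a mean of 5.0003. The 9870 genes below it differed by at most 0.16 in size.

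**Figure D1:**
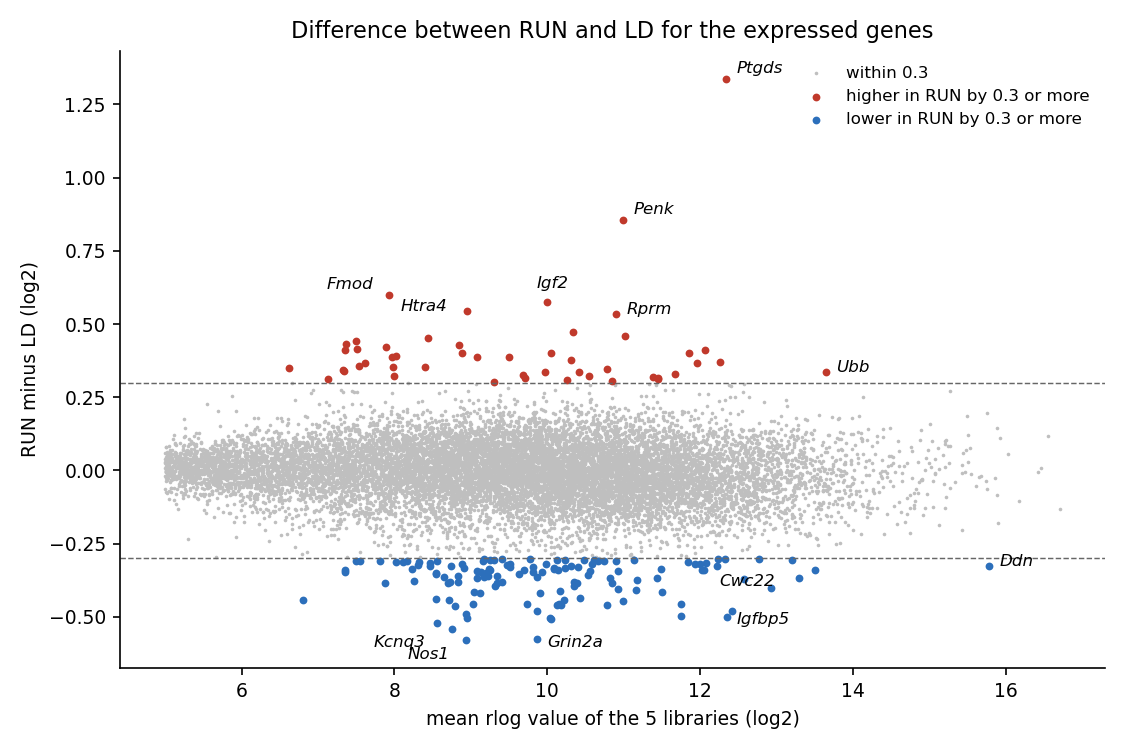
RUN minus LD (vertical axis, log2) against the mean rlog value of the 5 libraries (horizontal axis, log2) for the 13550 expressed genes, 1 point per gene and 1 library per group. The 49 genes in red rose and the 129 in blue fell by 0.3 or more (dashed lines). Ptgds and Penk stand above all others, and the falls form a dense band that ends at Nos1.

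The dissected tissue carried the markers of the DG. Among expressed genes ranked by level per kilobase of transcript, the granule cell genes C1ql2, Calb1 and Stxbp6 stood at percentiles 94.1, 93.8 and 94.4, and Prox1, the homeobox gene that keeps granule cell identity, stood at percentile 69.1. All 16 granule cell markers were expressed, but so were all 14 CA3 and CA2 markers found among the gene symbols. This count therefore does not set the DG apart from its neighbours. Of 15 markers of the choroid plexus, 10 were below the limit of expression, among them Otx2 (2.29 to 2.31 over the libraries) and Folr1 (2.41 to 2.44). Of 26 leptomeningeal markers 23 were expressed, and of 10 markers of CA1 and the subiculum 9.

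Most of the largest rises belonged to 1 of 2 sets by their values in L-RUN and H-RUN. Genes of the first set had similar values in the mice that ran least and in those that ran most. Genes of the second were higher in L-RUN than in H-RUN by 0.3 or more, most of them with H-RUN near LD, and 11 of its 14 genes were markers of leptomeningeal fibroblasts. The leptomeningeal list was chosen with earlier results of these data known, so this overlap is a description and not independent support. Of the 49 rises, 29 (59.2%) differed by less than 0.15 between L-RUN and H-RUN and 14 (28.6%) were higher in L-RUN by 0.3 or more, beside 89.2% and 0.561% of all expressed genes. Another 0.974% of expressed genes were lower in L-RUN by 0.3 or more, and among the rises Pappa was the only such gene (-0.34).

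The first set was led by Penk (chromosome 4, 4133531 to 4138819, on mm10 in GENCODE vM21, as for all gene positions given here), which encodes proenkephalin, the precursor of the enkephalin opioid peptides. Its value was 10.46 in LD, 11.32 in RUN, 11.37 in L-RUN, 11.29 in H-RUN and 10.52 in CE. The 3 libraries of runners thus lay within 0.07 of each other, 0.85 above LD in RUN (an increase of 80.8%, technical SD 0.031), while CE lay 0.06 above LD. Rprm (chromosome 2, 54084093 to 54085552), a gene induced by p53 that holds cells in G2, stood at 10.53 in LD, 11.06 in RUN, 11.06 in L-RUN, 11.04 in H-RUN and 10.84 in CE. Here CE was raised too, by 0.31, beside 0.54 in RUN. Htra4 (chromosome 8, 25024929 to 25038962), a secreted serine protease of the family that cleaves IGF binding proteins, was at 8.62 in LD, 9.17 in RUN, 9.15 in L-RUN, 9.20 in H-RUN and 8.63 in CE. LD and CE were equal for it to within the technical SD, and the runners stood 0.54 higher.

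Robo3, a receptor of the Slit pathway of axon guidance, rose by 0.46, from a value of 10.74 in LD and 11.20 in RUN, and Plekha2, which binds phosphoinositides at the membrane, by 0.41. CE minus LD was -0.03 and -0.06 for these genes. Rgs4, a brake on signaling through G protein-coupled receptors, read 12.03 in LD, 12.40 in RUN, 12.41 in L-RUN, 12.45 in H-RUN and 12.01 in CE. For this gene the runners formed a group 0.37 above LD, and CE did not differ from LD by more than the technical SD. C1ql2, a synaptic organizer that granule cells release from mossy fibers, rose by 0.37, and its CE value was also above LD, by 0.17. Kcnip3, which binds calcium and is also the transcriptional repressor DREAM, rose by 0.32, and Kif17, a motor that carries NMDA receptor subunits in dendrites, by 0.34. Others of this set were Igfbp6 (0.45), Ppl, a plakin of cell junctions (0.43), Darc, a decoy receptor for chemokines (0.40), Sh3bgrl3 (0.40), Serinc2 (0.39), Krt9 (0.39), Megf6 (0.36), Iglon5 (0.34), Csdc2 (0.33), Tmsb10, which binds actin monomers (0.32), Trnp1 (0.32) and Ubb, a polyubiquitin gene (0.34). Lgr6, a receptor for R-spondins, rose by 0.40, and its value was higher still in CE, at 0.51 above LD. A few rises were larger in H-RUN than in L-RUN. They included Nptx2, a secreted pentraxin that clusters AMPA receptors, which rose by 0.32 (0.20 in L-RUN, 0.42 in H-RUN), and Drd1a, the dopamine D1 receptor gene, which rose by 0.35 (0.24 and 0.43).

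The second set was led by Ptgds (chromosome 2, 25466709 to 25470046), which encodes the prostaglandin D synthase secreted into the cerebrospinal fluid. Its value was 11.64 in LD, 12.98 in RUN, 13.61 in L-RUN, 11.54 in H-RUN and 11.94 in CE. H-RUN was thus the lowest library and L-RUN the highest, 2.07 above it, and the rise of 1.34 in RUN came with no rise in H-RUN (-0.10). Fmod, a collagen-binding proteoglycan, was likewise highest in L-RUN, with H-RUN near LD. It was at 7.58 in LD, 8.18 in RUN, 8.60 in L-RUN, 7.60 in H-RUN and 7.69 in CE. Slc13a4 and Slc6a13, transporters of sulfate and of GABA in the leptomeninges, rose by 0.43 and 0.41 in RUN, with 0.83 and 0.69 in L-RUN and -0.02 and -0.04 in H-RUN. Aldh1a2, which makes retinoic acid, rose by 0.44, Mgp, an inhibitor of calcification, by 0.42, Aebp1, a matrix protein of collagen-rich tissue, by 0.39, the anion transporter gene Slc22a6 by 0.35 and the gap junction gene Gjb2 by 0.34. In each of these, H-RUN was within 0.1 of LD. Apod, an apolipoprotein of fibroblasts and oligodendrocytes, was not on the leptomeningeal list and had the same order as Ptgds, with 0.78 in L-RUN and -0.02 in H-RUN.

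The leptomeningeal list as a whole moved with this set. Of its 23 expressed members, 17 were higher by 0.15 or more and 1 (Ogn, -0.26) lower, and the median was 0.26, against -0.0013 over all expressed genes. In all, 11 members rose and 0 fell, beside 0.362% and 0.952% of all expressed genes. All 11 were higher in L-RUN than in H-RUN by 0.3 or more, and their median difference from LD was 0.42 in RUN, 0.71 in L-RUN, -0.0054 in H-RUN and 0.10 in CE. For the 38 other rises the same medians were 0.36, 0.36, 0.36 and 0.099. The summed level of the 26 markers on the linear scale, given as log2, was 13.60 in LD, 14.15 in RUN, 14.57 in L-RUN, 13.49 in H-RUN and 13.85 in CE. Without Ptgds it was 13.17, 13.30, 13.53, 13.06 and 13.41, so that CE exceeded RUN in this sum. Such a sum follows its most abundant members, among them Crym, which had its highest value in CE. The order of CE and RUN in the sum is therefore not that of the list as a whole. The list median of the difference from LD was 0.26 in RUN and 0.10 in CE. Foxc2, Foxd1 and Slc22a2 were below the limit of expression, at 4.20 to 4.38, 4.56 to 4.72 and 3.14 to 3.25 over the libraries. Not every member was higher in RUN. Dcn and Lum, proteoglycans of the same fibroblasts, differed from LD by -0.11 and 0.01. Dcn and Ogn were nonetheless higher in L-RUN than in H-RUN, by 0.81 and 0.72, with H-RUN at -0.52 and -0.68 from LD, and for Lum the 2 libraries differed by 0.21. The part of leptomeningeal cells in these rises was not tested, and in pooled tissue more cells of a type and more RNA per cell cannot be told apart.

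**Figure D2:**
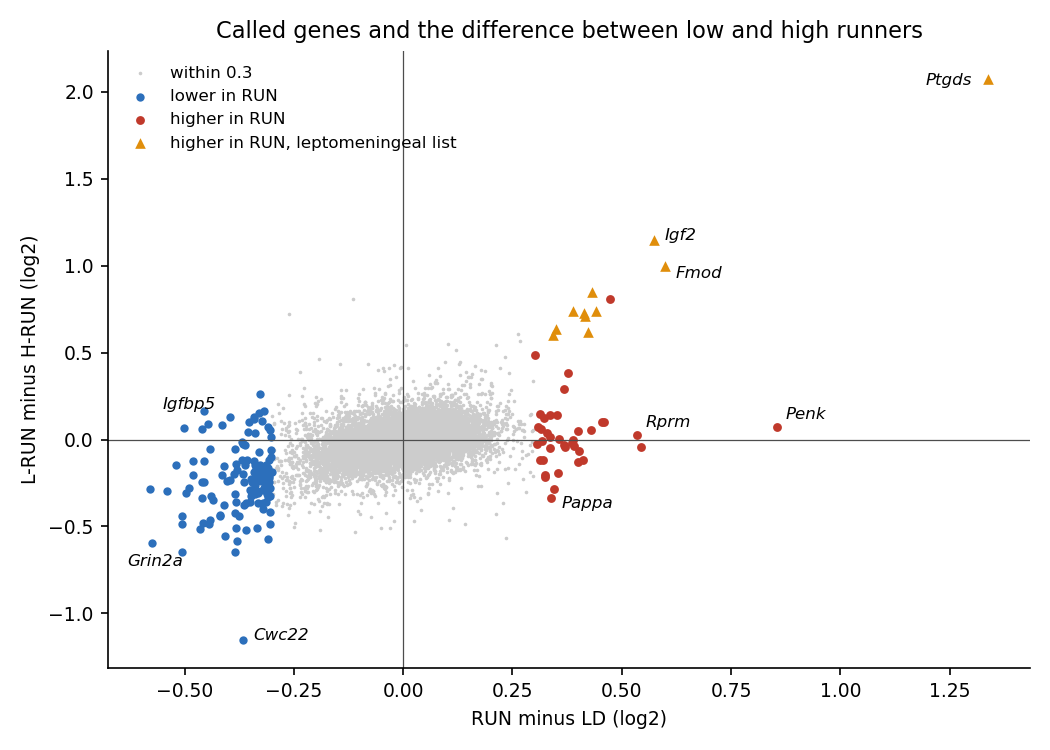
L-RUN minus H-RUN (vertical axis, log2) against RUN minus LD (horizontal axis, log2) for the 13550 expressed genes, with 1 library per group. Rises on the leptomeningeal list (triangles) lie between 0.60 and 2.07 on the vertical axis, most other rises (red) lie near 0, and the falls (blue) extend downward to Cwc22.

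**Figure D3:**
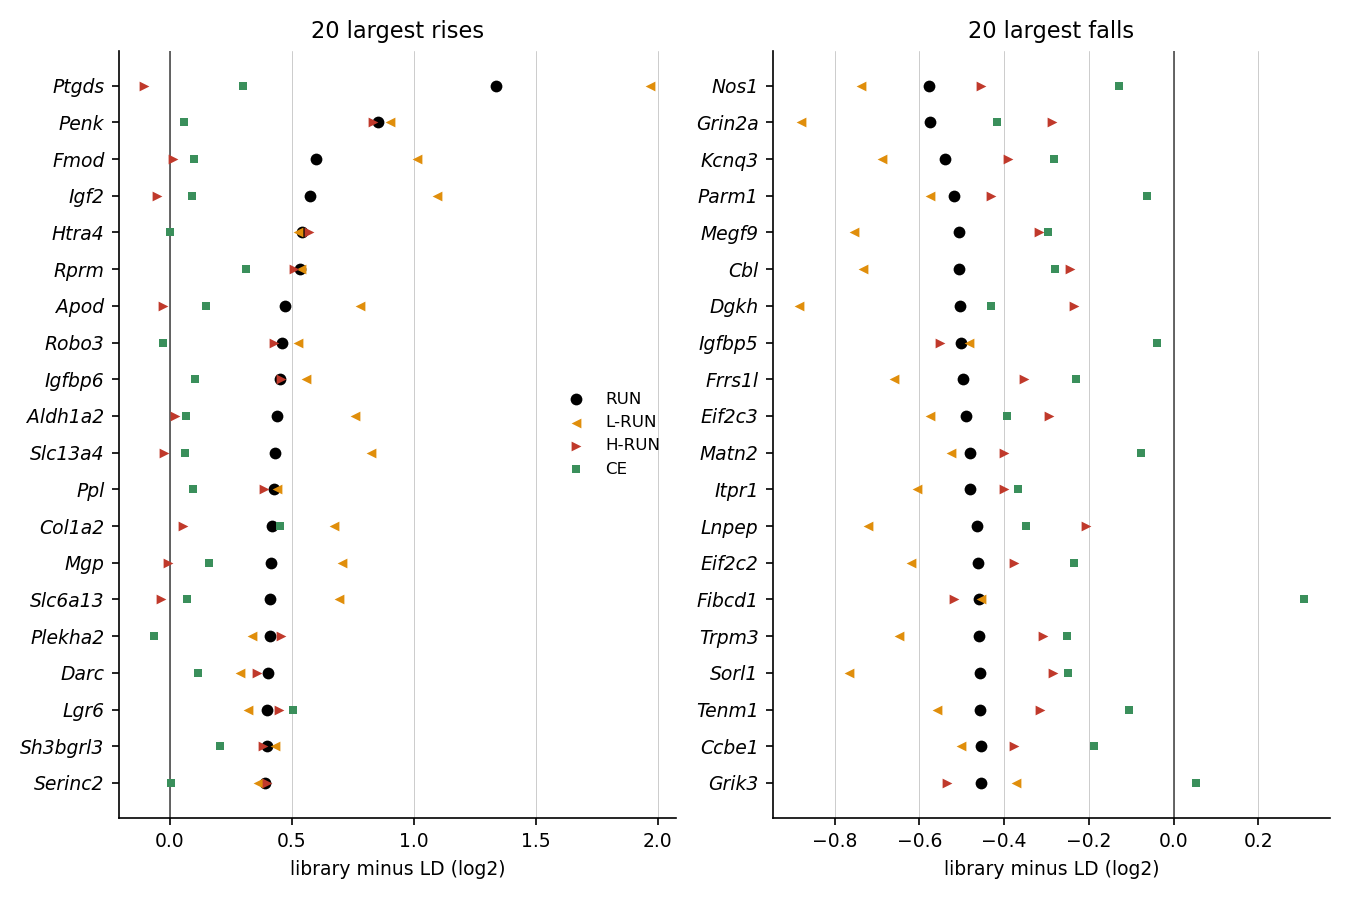
Difference from LD (horizontal axis, log2) in RUN, L-RUN, H-RUN and CE for the 20 largest rises and the 20 largest falls in RUN, with 1 library per group and 1 shared LD library. Penk, Htra4, Rprm and Robo3 have their 3 runner values side by side, while Ptgds, Fmod, Igf2 and Apod have H-RUN near 0 or below it. RUN holds the mice of L-RUN and H-RUN, so its value is expected between theirs.

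The largest falls were Nos1, Grin2a and Kcnq3. Nos1 (chromosome 5, 117781032 to 117958840), the neuronal nitric oxide synthase, stood at 9.32 in LD, 8.74 in RUN, 8.58 in L-RUN, 8.87 in H-RUN and 9.19 in CE, so that every runner library was below both LD and CE. Its fall of -0.58 was the largest in the data. Kcnq3 (chromosome 15, 65986387 to 66286642), a subunit of the M-type potassium channel that damps repetitive firing, was at 9.14 in LD, 8.60 in RUN, 8.45 in L-RUN, 8.75 in H-RUN and 8.86 in CE. CE lay between LD and the runners here. Frrs1l, an assembly factor of AMPA receptors, fell (-0.50), as did Trpm3, a cation channel (-0.46), and Itpr1, the main calcium release channel of the endoplasmic reticulum in neurons (-0.48). Cbl and Megf9 fell (-0.51 and -0.51). Eif2c2 and Eif2c3, the Argonaute genes whose proteins hold miRNAs, fell (-0.46 and -0.49), as did Sorl1, the sorting receptor for the amyloid precursor protein (-0.46). Other large falls were Lnpep (-0.46), which cleaves oxytocin and vasopressin, Tenm1 (-0.46), a teneurin of synaptic contacts, Parm1 (-0.52) and Ccbe1 (-0.46), a secreted factor that helps to activate VEGF-C. Among transcription regulators, Mef2a (-0.31), Mef2d (-0.31) and Hdac4 (-0.31), a deacetylase that represses MEF2 factors, also fell.

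In several other falls CE was nearer to LD than to the runners. Fibcd1 (chromosome 2, 31813290 to 31846005), a CA1 marker that encodes a chitin-binding receptor, was at 10.35 in LD, 9.89 in RUN, 9.90 in L-RUN, 9.83 in H-RUN and 10.66 in CE. CE was the highest library for it and the 3 runner libraries the lowest. Grik3, a kainate receptor subunit of granule cells, was at 10.42 in LD, 9.96 in RUN, 10.05 in L-RUN, 9.88 in H-RUN and 10.47 in CE, with the runners below LD and CE and H-RUN 0.16 below L-RUN. Matn2, a matrix adaptor, fell (-0.48), with -0.53 in L-RUN, -0.40 in H-RUN and -0.08 in CE. Hrk, a BH3-only activator of apoptosis in neurons, fell (-0.45), with -0.14 in CE. Kitl, the ligand of the receptor Kit, fell (-0.40), as did Fat4, a giant cadherin (-0.41). Adamts1, a metalloprotease that cleaves lecticans, also fell (-0.36), but its CE value was nearer to the runners than to LD. Of the 129 falls, 34 (26.4%) differed by less than 0.15 between L-RUN and H-RUN, 43 (33.3%) were lower in L-RUN by 0.3 or more and 0 were higher by as much. The median of L-RUN minus H-RUN was -0.24 over the falls and -0.0028 over all expressed genes.

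Falls went with transcript length. Across the 13452 expressed genes with an annotated transcript (99.3%), the Spearman correlation of RUN minus LD with the length of the longest transcript was -0.49, a description across genes that share the same libraries. The median of RUN minus LD was 0.073 in the decile of shortest transcripts (median 1152.5 nt) and -0.092 in the decile of longest (median 8563 nt). Of the 129 falls, 65 were in that last decile. The median transcript was 7029.5 nt among falls, 2732 nt among rises and 3518.5 nt among all. The other libraries showed the slope too, with medians from 0.09 to -0.12 in L-RUN, 0.045 to -0.061 in H-RUN and 0.043 to -0.065 in CE, all against the same LD library. With the trend removed by a lowess curve, 55 genes were higher and 65 lower by 0.3 or more (45.8% higher, beside 27.5% as deposited), and these held 44 of the 49 rises and 63 of the 129 falls. Among those that stayed below -0.4 were Nos1, Parm1, Matn2, Grin2a, Igfbp5 and Fibcd1 (-0.48, -0.48, -0.48, -0.45, -0.45 and -0.43). The part of transcript length in the remaining falls was not tested further.

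**Figure D4:**
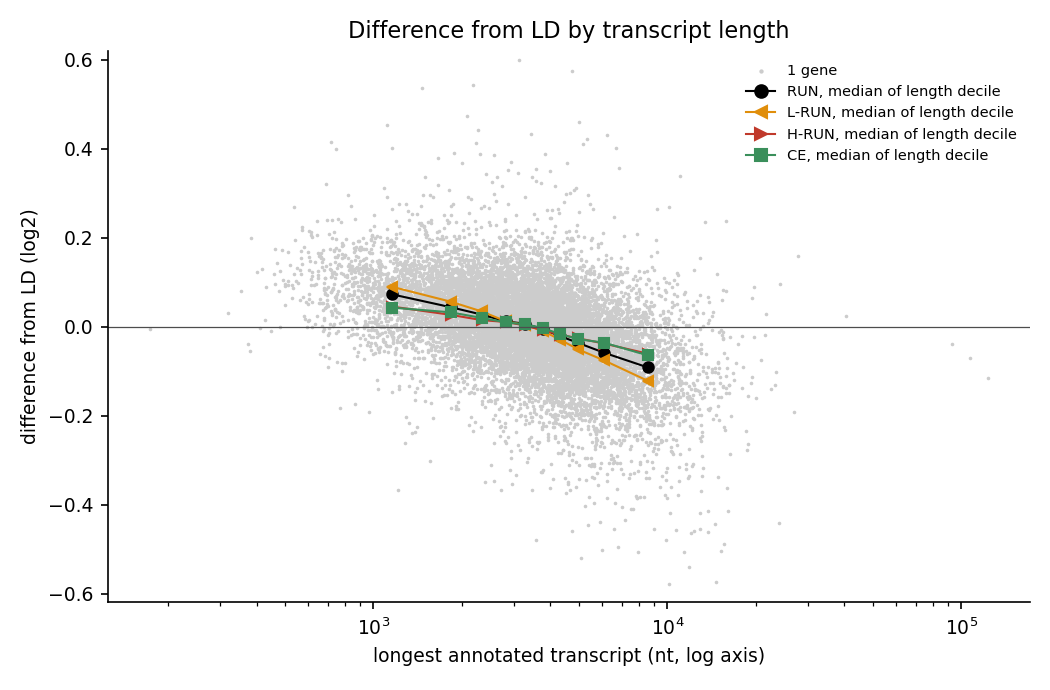
Difference from LD (vertical axis, log2) against the length of the longest annotated transcript (horizontal axis, nt, log scale). Grey points are the RUN values of single genes (Ptgds and Penk lie above the axis), and joined symbols are medians of length deciles in RUN, L-RUN, H-RUN and CE. The RUN medians pass from 0.073 to -0.092, with the steepest line in L-RUN.

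The 59 lists of genes and markers lay close to 0 as whole lists. Of these, 40 had a median within 0.05 of 0, and only the leptomeningeal list passed 0.15. Since the lists were chosen with earlier results of these data known, its place is a description only. The extremes inside the lists were wider than their medians, and they are given by role, with the number of expressed members that were higher or lower by 0.15 or more for the main lists. Each such number stands beside 4.24% higher and 7.04% lower over all expressed genes, so an excess of lower members is in part shared by the whole comparison. Numbers of members that rose or fell stand beside 0.362% and 0.952% of all expressed genes.

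**Figure D5:**
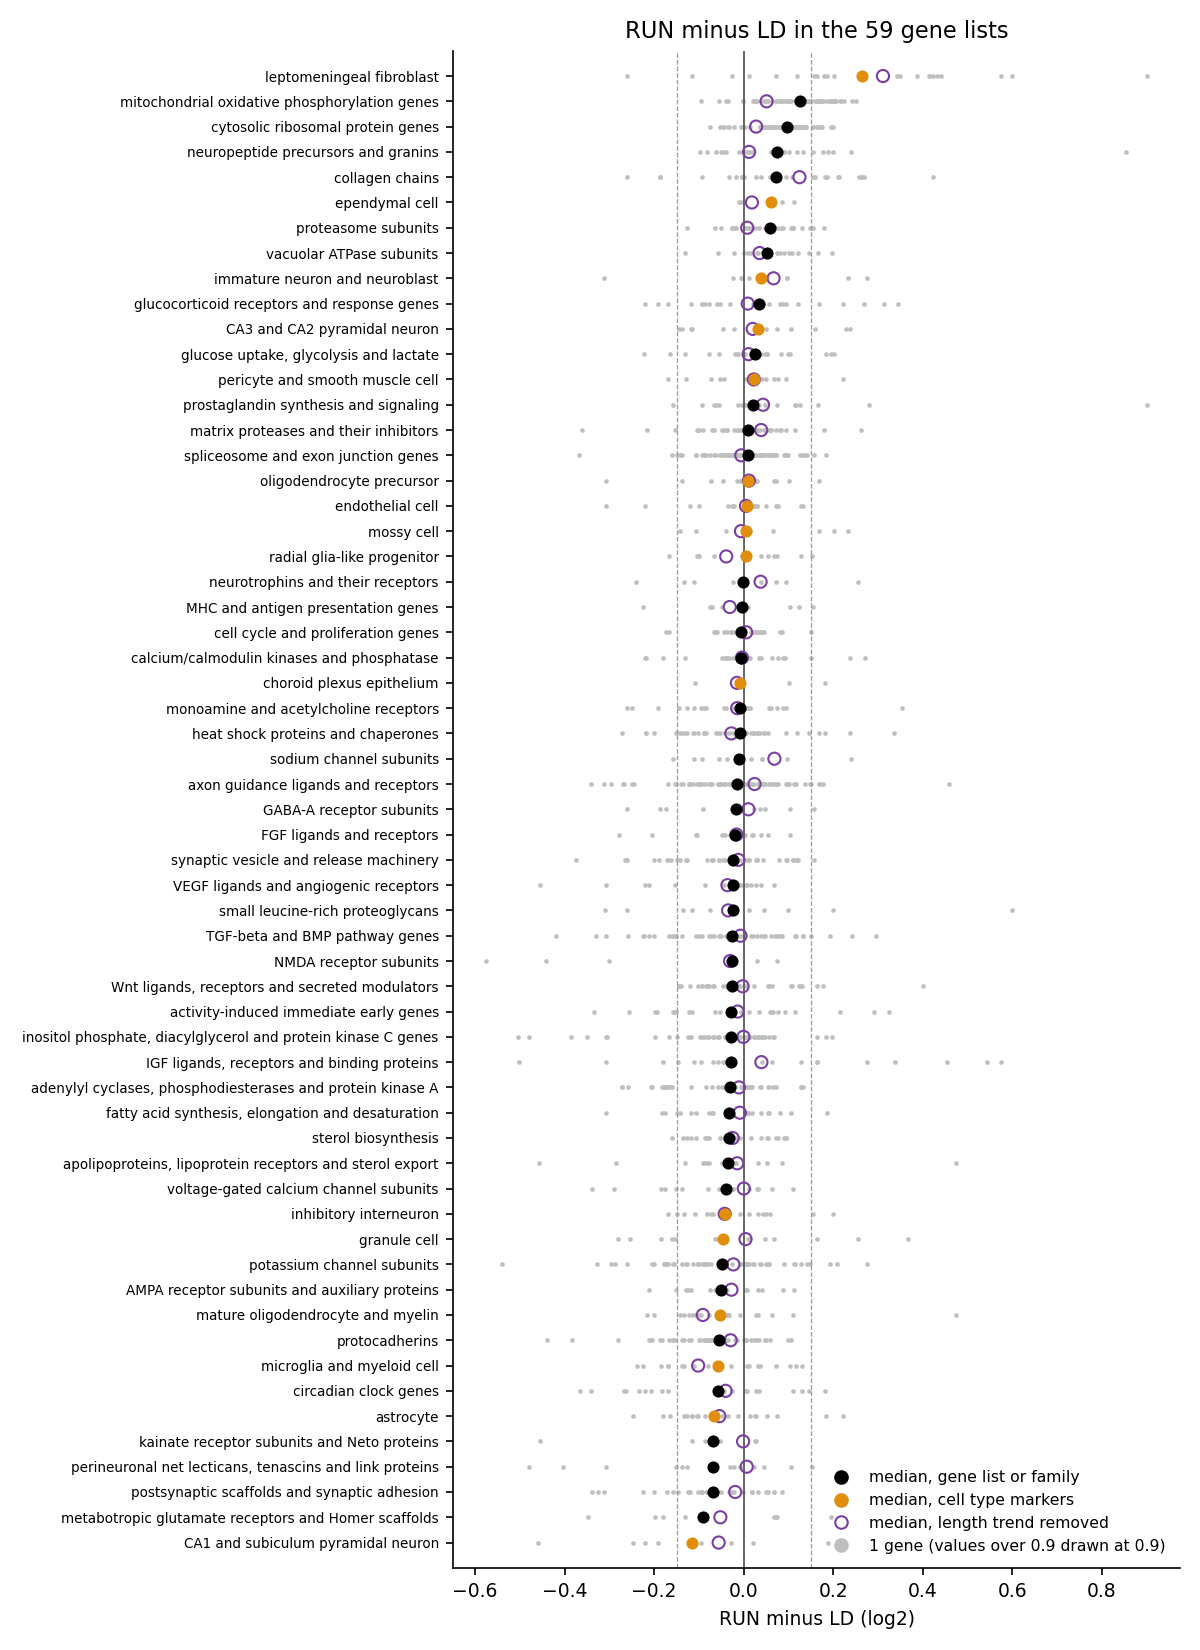
RUN minus LD (horizontal axis, log2) for the expressed members of the 59 lists, 1 grey point per gene (Ptgds is drawn at the right edge) and 1 library per group. Filled circles are list medians (orange for cell type markers, black for the rest) and open circles are medians with the transcript-length trend removed. The leptomeningeal list stands apart at 0.26, and the filled circles of the other lists lie inside the dashed lines at 0.15 in size.

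Among glutamate receptors, 3 NMDA receptor subunits and 1 kainate receptor subunit fell. NMDA receptors pair the obligatory subunit Grin1 with GluN2 or GluN3 subunits that set their kinetics. Grin2a, the GluN2A gene (chromosome 16, 9567898 to 9995560), was at 10.30 in LD, 9.72 in RUN, 9.42 in L-RUN, 10.01 in H-RUN and 9.88 in CE, with LD highest and L-RUN lowest. Grin2b (-0.44) and Grin3a (-0.30) also fell, while Grin1 (0.03), Grin2c (-0.02), Grin2d (0.07) and Grin3b (-0.03) were within 0.15. The 3 that fell have the longest transcripts of the 7 (14634, 24060 and 7491 nt). For Grin3a the values were 9.96 in LD, 9.66 in RUN, 9.64 in L-RUN, 9.62 in H-RUN and 9.99 in CE, so that CE was at the level of LD and the runners were grouped below. In the kainate receptor list, Grik3 was the only member past 0.15, and Grik1 (-0.07), Grik2 (0.03), Grik4 (-0.05), Grik5 (0.02), Neto1 (-0.09) and Neto2 (-0.12) were within it. Of 18 genes of AMPA receptors and their auxiliary proteins, 0 were higher and 2 lower by 0.15 or more, with Shisa6 lowest (-0.21) and the pore subunits Gria1, Gria2, Gria3 and Gria4 at -0.12, -0.13, 0.04 and 0.0074. In the list of metabotropic receptors and Homer scaffolds, Homer2 fell (-0.35), and Grm2, the presynaptic autoreceptor of mossy fibers, was the highest (0.19).

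Receptors for GABA, monoamines and acetylcholine held 1 rise and 0 falls. Of 11 expressed GABA-A subunits, 1 was higher and 3 were lower by 0.15 or more, with Gabra3 lowest (-0.26), and Gabrd, the extrasynaptic subunit typical of granule cells, differed by 0.02. Of 29 receptors for monoamines and acetylcholine, 1 was higher (Drd1a, above) and 3 were lower by 0.15 or more. These were Chrna7, the alpha7 nicotinic receptor (-0.26), Htr1a, the inhibitory serotonin receptor of granule cells (-0.25), and Chrm3 (-0.19). Drd1a was at 8.21 in LD, 8.56 in RUN, 8.45 in L-RUN, 8.64 in H-RUN and 8.17 in CE, with H-RUN the highest library and CE the lowest.

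At the synapse, 7 of 38 postsynaptic scaffolds and adhesion genes were lower by 0.15 or more and 0 were higher (list median -0.07, or -0.02 without the length trend). Strn, a calmodulin-binding scaffold of dendrites (-0.34), Ddn, the dendritic gene dendrin (-0.33), and Lzts1 (-0.31) fell. Dlg4, the PSD-95 gene, differed by 0.02. Ddn differed from LD by -0.46 in L-RUN, -0.22 in H-RUN and -0.08 in CE. Of 43 genes of vesicle release, 1 was higher and 9 were lower by 0.15 or more. Syt3, a synaptotagmin, was highest (0.16).

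Potassium and calcium channel genes were lower by 0.15 or more in more cases than higher, as were all expressed genes (7.04% lower and 4.24% higher). Of 61 potassium channel subunits, 3 were higher and 14 lower by 0.15 or more. After Kcnq3, the inward rectifier Kcnj16 of glial cells fell (-0.33), and it was lower in H-RUN (-0.40) than in L-RUN (-0.14). The highest was Kcnj2, an inward rectifier of granule cells (0.28), at 9.94 in LD, 10.22 in RUN, 10.10 in L-RUN, 10.33 in H-RUN and 9.91 in CE. Among 16 calcium channel subunits, Cacna1e, the pore of R-type channels, fell (-0.34), Cacna1c, an L-type pore, was at -0.29, and 0 were higher by 0.15. Of 10 sodium channel subunits, 1 was higher and 1 lower by 0.15 or more, the latter Scn3b, an auxiliary subunit (-0.16). Removal of the length trend brought the calcium channel median from -0.04 to 0.0003 and the potassium channel median from -0.05 to -0.02.

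Behind the receptors, 6 of 54 genes of inositol phosphate and diacylglycerol signaling fell, beside 0.952% of all expressed genes, and 3 were higher and 8 lower by 0.15 or more. It was the largest number of falls in a list but not the largest share, as 3 of 7 NMDA receptor subunits fell. The list median was -0.03, or -0.0006 without the length trend. Enzymes of this list split the membrane lipid PIP2 into a calcium-releasing and a kinase-activating messenger and clear both. Dgkh and Dgki, which remove diacylglycerol, fell (-0.51 and -0.35), as did Itpr1, the receptor for inositol trisphosphate (-0.48), Itpkb, which phosphorylates that messenger (-0.39), Impad1 (-0.31) and Prkcb, a kinase that diacylglycerol activates (-0.30). Itpr1 read 12.79 in LD, 12.31 in RUN, 12.18 in L-RUN, 12.39 in H-RUN and 12.42 in CE, with LD the highest and L-RUN the lowest library. Inpp5j, a phosphatase of PIP2, was the highest of the list (0.20). Of 43 genes of cyclic AMP signaling, 14 were lower by 0.15 or more and 0 higher, from Adcyap1r1, the receptor for the peptide PACAP (-0.27), to Adcyap1, the PACAP gene itself (0.13). Their median was -0.03, or -0.01 without the length trend. In the calcium/calmodulin list, Camk1d was lowest (-0.22) and Nrgn, which holds calmodulin at rest, highest (0.27), at 15.07 in LD, 15.34 in RUN, 15.37 in L-RUN, 15.39 in H-RUN and 15.23 in CE.

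Neuropeptide genes were on the higher side. Of 27 expressed precursors, granins and processing enzymes, 6 were higher by 0.15 or more and 0 lower. Penk was far above the rest, followed by Grp, gastrin-releasing peptide (0.24), Sst, somatostatin of interneurons (0.20), Pcsk1n, an inhibitor of the prohormone convertase (0.19), Chgb, a granin (0.18), and Npy, neuropeptide Y (0.15). Not all of these had the pattern of Penk. Sst had its highest value in CE and was near LD in H-RUN, and Npy was raised in L-RUN but at the level of LD in H-RUN. Pdyn, which encodes the dynorphin precursor of mossy fibers, differed by -0.0008 (technical SD 0.047). Short transcripts made up this list (median 1883 nt), and its median passed from 0.07 to 0.01 without the length trend.

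Immediate early genes, which neurons switch on within minutes of activity, were lower more often than higher. Of 27 expressed, 7 were lower and 3 higher by 0.15 or more, beside 7.04% and 4.24% of all expressed genes. Arc, whose protein removes AMPA receptors from synapses, stood at 10.43 in LD, 10.10 in RUN, 9.98 in L-RUN, 10.28 in H-RUN and 10.39 in CE, and fell (-0.33), with CE near LD. Nr4a3 (-0.26), Homer1 (-0.20), Egr1 (-0.19), Dusp6 (-0.16), Egr3 (-0.16) and Fos (-0.15) were lower, and Npas4 was at -0.12. On the higher side were Nptx2, Ier5 (0.29) and Jund (0.21). Ier5 was at 10.40 in LD, 10.69 in RUN, 10.64 in L-RUN, 10.67 in H-RUN and 10.41 in CE, with LD and CE together and the runners together above them.

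Growth factor pathways held changes at both ends. In the IGF pathway, binding proteins hold the ligands in the matrix and proteases release them. Of 22 expressed genes, 4 rose and 2 fell, beside 0.362% and 0.952% of all expressed genes. The ligand Igf2 belonged to the leptomeningeal set (1.15 higher in L-RUN than in H-RUN), and Igf1 differed by -0.07. The binding protein gene Igfbp5 (chromosome 1, 72857932 to 72874884) stood at 12.66 in LD, 12.16 in RUN, 12.18 in L-RUN, 12.11 in H-RUN and 12.62 in CE, and Igfbp6 had 8.13 in LD, 8.58 in RUN, 8.68 in L-RUN, 8.58 in H-RUN and 8.23 in CE. In each, CE was nearer to LD and the runners lay apart from both, in opposite directions. The protease genes Htra4 and Pappa, the latter a metalloprotease that cleaves Igfbp4 and Igfbp5, rose, and Igfbp4 differed by 0.04. Pappa was higher in H-RUN (0.46 above LD) than in L-RUN (0.12). Downstream, Irs2 fell (-0.31) and the receptor gene Igf1r was lower (-0.18).

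Bdnf was the highest of 9 expressed neurotrophin genes, at 0.26, and Ntrk2, the gene of its receptor TrkB, the lowest, at -0.24. Ntrk2 was at 13.04 in LD, 12.80 in RUN, 12.72 in L-RUN, 12.86 in H-RUN and 13.01 in CE. In the TGF-beta and BMP list, 3 of 50 genes fell, all on the receiving side of the pathway, and 3 were higher and 12 lower by 0.15 or more. These were the receptors Bmpr2 (-0.42) and Tgfbr1 (-0.33) and the corepressor Skil (-0.31), while Smad4 (-0.26), Smad2 (-0.22), Bmpr1a (-0.17) and Bmpr1b (-0.16) were lower by 0.15 or more. Tgfbr1 was at 10.66 in LD, 10.33 in RUN, 10.39 in L-RUN, 10.24 in H-RUN and 10.39 in CE, lower in H-RUN than in L-RUN, whereas Bmpr2 was lower in L-RUN (-0.44 between them). The highest were Bmp1, a protease that matures collagen (0.29), and the ligand Bmp6 (0.24). The median of the TGF-beta and BMP list was -0.03, or -0.0071 without the length trend. Among VEGF genes, Ccbe1 and the receptor gene Flt1 (-0.31) fell, and the receptor Kdr (-0.22) and the ligand Vegfa (-0.21) were lower. Of 14 FGF genes, Fgfr2 was lowest (-0.28) and 0 were higher by 0.15. Of 41 Wnt pathway genes, Lgr6 rose, Wnt10a (0.18) and Rspo3 (0.16), which encodes a ligand of Lgr6, were higher, and 0 were lower by 0.15.

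Guidance genes gave 1 rise and 2 falls among 76, with 5 higher and 10 lower by 0.15 or more. Their median was -0.02, or 0.02 without the length trend. Beside Robo3, Sema4d (-0.34) and Dpysl3, which carries semaphorin signals (-0.31), fell. Slit3 (just short of 0.3, at -0.30) and Slit1 (-0.27), ligands of the Robo family, were lower, and so was the netrin receptor gene Dcc (-0.27). Of 63 protocadherins, which give neurons a combinatorial surface code, 12 were lower and 0 higher by 0.15 or more. The protocadherin median was -0.06, or -0.03 without the length trend. Pcdhac2 (-0.44) and Pcdh1 (-0.38) fell, and the highest was Pcdhb12 (0.11). Reads of the clustered members share exons, so their values are less certain than those of other genes.

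In the matrix, collagen chains were higher more often than lower. Of 32 collagen chains, 11 were higher and 3 lower by 0.15 or more. Col1a2 rose, at 7.57 in LD, 7.99 in RUN, 8.24 in L-RUN, 7.62 in H-RUN and 8.02 in CE, with the CE value above RUN, and Col6a3 (0.27), Col7a1 (0.26), Col3a1 (0.26) and Col20a1 (0.26) followed, while Col25a1, a membrane collagen of neurons, was lowest (-0.26). Col6a3 and Col3a1 were higher in L-RUN than in H-RUN by 0.56 and 0.61, and Col7a1 and Col20a1 by only 0.07 and 0.06. The collagen median was 0.07, and 0.12 without the length trend (median transcript 6084 nt). In the perineuronal net list, Matn2, Spock2 (-0.40) and Tnr, tenascin-R (-0.31), fell, and the lectican genes Acan, Bcan and Vcan were at 0.04, -0.03 and -0.0092. Among small leucine-rich proteoglycans, Fmod rose and Ecm2 fell (-0.31). The proteases ran from Adamts1 to Plat, tissue plasminogen activator (0.26), which was at 10.37 in LD, 10.63 in RUN, 10.68 in L-RUN, 10.58 in H-RUN and 10.52 in CE.

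Of the prostaglandin genes, Ptgs2, the inducible cyclooxygenase of granule cells, was highest after Ptgds (0.28), with 9.32 in LD, 9.60 in RUN, 9.42 in L-RUN, 9.72 in H-RUN and 9.37 in CE. Unlike Ptgds, it had its highest value in H-RUN. Among apolipoproteins and lipoprotein receptors, Apoe differed by 0.05 and Lrp1b was lower (-0.29). Of 24 sterol synthesis genes, 23 were within 0.15, with Ebp highest (0.10). In fatty acid synthesis, Elovl6, which elongates palmitate, fell (-0.31), Fads2 (-0.18), Scd2 (-0.18) and their regulator Srebf1 (-0.15) were lower, and Elovl1, which elongates very long chains, was higher (0.19).

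The genes of oxidative phosphorylation were shifted upward by a small amount over most of their number. Of 77 expressed subunits, 71 had a difference above 0, 25 were higher by 0.15 or more and 0 were lower by 0.15 or past 0.3. The highest were Cox7b (0.25), Cox5b (0.24) and Ndufa2 (0.22), and the lowest was Atp5b (-0.10). Cox7b was at 12.25 in LD, 12.50 in RUN, 12.57 in L-RUN, 12.42 in H-RUN and 12.52 in CE, with LD the lowest library. The median was 0.13, with 0.14 in L-RUN, 0.09 in H-RUN and 0.07 in CE. These transcripts are short (median 1141 nt), and the median was 0.051 without the length trend. Cytosolic ribosomal protein genes followed the same course, with 70 of 79 above 0, 9 higher by 0.15 or more and a median of 0.096, or 0.028 without the length trend. Proteasome subunits had a median of 0.06, or 0.0079, and vacuolar ATPase subunits 0.05, or 0.04. The part of transcript length in these shifts was not tested beyond this. In glycolysis, Aldoa (0.20), Gapdh (0.18) and Pdk1, which holds pyruvate back from mitochondria (0.20), were higher, and the lactate transporter gene Slc16a7 was lowest (-0.22).

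Genes of the circadian clock were lower more often than higher. In this clock, the activators Clock, Npas2 and Arntl switch on Per, Cry, Nr1d, Dbp and related genes through E-boxes, DBP, TEF and HLF act through D-boxes, and NR1D proteins repress Arntl, Npas2 and Nfil3. Of 22 expressed clock genes, 9 were lower and 1 higher by 0.15 or more, beside 7.04% and 4.24% of all expressed genes. Nr1d2 (chromosome 14, 18204054 to 18239127) stood at 11.69 in LD, 11.32 in RUN, 11.32 in L-RUN, 11.34 in H-RUN and 11.52 in CE, and Hlf had 12.27 in LD, 11.93 in RUN, 12.02 in L-RUN, 11.89 in H-RUN and 12.14 in CE. Both fell, and in both the 3 runner libraries were the lowest, with CE between them and LD. Bhlhe40 (-0.27), Per3 (-0.26), Per2 (-0.23), Tef (-0.22), Dbp (-0.18) and Cry2 (-0.17) were lower as well. Per2 was at 10.27 in LD, 10.03 in RUN, 10.03 in L-RUN, 10.02 in H-RUN and 10.24 in CE, so that LD and CE were together and the runners together below them. On the higher side were Npas2 (0.18), Nfil3 (0.15) and Arntl (0.13), with Arntl at 10.15 in LD, 10.28 in RUN, 10.30 in L-RUN, 10.25 in H-RUN and 10.02 in CE. Clock itself was lower (-0.21), and Per1 (-0.06) and Nr1d1 (0.0063) were within 0.15. Without the length trend the list median went from -0.06 to -0.04, and Nr1d2, Hlf, Per3 and Per2 were at -0.34, -0.29, -0.21 and -0.18. The hour of dissection of each group is not given in the sources used here, and its part in these values was not tested.

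Promoters of 3 of the lower clock genes are shown because each holds a sequence, or part of a sequence, that the clock is known to use. They are the 250 bases before the start site in RefSeq (GRCm38.p6, the build of the files), written 5′ to 3′ on the strand of the gene. The start sites are those of RefSeq, and the windows of Tef and Ptgds lie inside the longer gene spans of GENCODE, while that of Nr1d2 overlaps the span at its edge and that of Per3 ends where both annotations begin the gene. Capitals mark the E-box CACGTG, the D-box TTATGTAA (TTACATAA on the other strand) or the receptor site AGGTCA that NR1D and ROR proteins read, which on the other strand appears as TGACCT. Both strands were searched, and no matches overlapped in the windows shown. Ptgds, the largest rise, is shown with them since its window also held a D-box match.
Per3, chr4:151044666-151044915, minus strand: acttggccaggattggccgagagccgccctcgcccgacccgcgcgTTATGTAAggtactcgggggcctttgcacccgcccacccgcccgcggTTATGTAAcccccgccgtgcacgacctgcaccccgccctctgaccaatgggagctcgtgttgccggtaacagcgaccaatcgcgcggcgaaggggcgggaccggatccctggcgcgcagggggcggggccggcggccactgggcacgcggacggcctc
Tef, chr15:81802423-81802672, plus strand: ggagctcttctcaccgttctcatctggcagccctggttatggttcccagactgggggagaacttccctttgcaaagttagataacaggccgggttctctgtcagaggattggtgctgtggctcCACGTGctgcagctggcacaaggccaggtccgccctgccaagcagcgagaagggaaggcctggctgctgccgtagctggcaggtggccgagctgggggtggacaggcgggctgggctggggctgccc
Nr1d2, chr14:18239107-18239356, minus strand: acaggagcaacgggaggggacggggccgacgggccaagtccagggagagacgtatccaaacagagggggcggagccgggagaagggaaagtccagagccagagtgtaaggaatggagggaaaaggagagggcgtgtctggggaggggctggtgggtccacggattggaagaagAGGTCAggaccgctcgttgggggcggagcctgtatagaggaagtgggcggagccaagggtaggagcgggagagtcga
Ptgds, chr2:25469750-25469999, minus strand: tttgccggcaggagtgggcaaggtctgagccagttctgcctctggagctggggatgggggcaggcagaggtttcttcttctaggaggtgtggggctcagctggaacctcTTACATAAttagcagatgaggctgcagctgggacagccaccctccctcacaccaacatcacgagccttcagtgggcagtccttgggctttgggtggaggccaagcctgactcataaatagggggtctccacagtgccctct
Per3 held D-box letters at 205 and 158 bases before its start, Tef an E-box at 127 in the window shown and at 138 in its other window, Nr1d2 a receptor site at 77 and Ptgds a D-box at 141. Windows were found for 18 of the 22 expressed clock genes. The E-box was in those of 4 (Bhlhe41, Cry1, Per1 and Tef), the D-box in 2 (Per3 and Timeless) and the receptor site in 4 (Clock, Nfil3, Nr1d2 and Per1). Among all 27025 genes with a window, 6.86% held the E-box, 0.977% the D-box and 15.8% the receptor site in at least 1 of their windows. A match is a run of letters and says nothing of binding in these mice, and genes that held 1 did not share a direction, as Tef was lower and Bhlhe41 (0.11) higher.

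Of 26 expressed genes of glucocorticoid receptors and their targets, 5 were higher and 3 lower by 0.15 or more. Corticosterone acts through the glucocorticoid receptor Nr3c1 and the mineralocorticoid receptor Nr3c2. Nr3c2 (-0.22) and Nr3c1 (-0.17) were both lower by 0.15 or more. Sgk1, a kinase that the hormone induces, stood at 10.54 in LD, 10.88 in RUN, 10.79 in L-RUN, 11.08 in H-RUN and 10.60 in CE, with H-RUN the highest. The metallothionein gene Mt1 rose by 0.31, but CE stood 0.39 above LD for it, and Mt3 (0.27) and Mt2 (0.17) were higher. Other common targets such as Fkbp5 (0.04), Tsc22d3 (0.09) and Per1 were within 0.15. Among 49 chaperones, 4 were higher and 5 lower by 0.15 or more. Ubb rose and Hspa1b, an inducible HSP70 gene, was higher (0.24), and among the lower were chaperones of the endoplasmic reticulum, with Dnajc3 at -0.27, Canx at -0.22, Hyou1 at -0.22 and Hspa5, or BiP, at -0.20.

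Markers of the cell types of the DG stayed near 0 as lists. Granule cell markers had a median of -0.05, from Npnt (-0.28) and Prox1 (-0.25) to Plk5 (0.25) and C1ql2. Prox1 read 12.01 in LD, 11.76 in RUN, 11.61 in L-RUN, 11.93 in H-RUN and 11.86 in CE, with LD highest. Of 11 expressed genes of immature neurons, the cells that running is known to add, 2 were higher and 1 lower by 0.15 or more. The lower gene was Dpysl3, which fell (-0.31) and was the only one of the list past 0.3. Igfbpl1 (0.28) and Calb2 (0.23) were higher. Dcx differed by -0.02, Neurod1 by 0.05 and Sox11 by -0.0027, and Neurod4, Eomes and Neurog2 were below the limit of expression. Igfbpl1, a marker of young granule neurons, was at 7.15 in LD, 7.43 in RUN, 7.41 in L-RUN, 7.40 in H-RUN and 7.13 in CE, so that the runners were together above LD and CE. Of 31 expressed cell cycle genes, 28 were within 0.15, with Mki67 at -0.07 and Top2a at 0.04. Calb2 also marks mossy cells, of whose 11 markers 3 were higher and 0 lower by 0.15 or more.

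Markers of CA1 and the subiculum had the lowest median of all lists (-0.12), with 4 of 9 lower and 1 higher by 0.15 or more. Beside Fibcd1 these were Nov (-0.25), Mpped1 (-0.22) and Pou3f1 (-0.19), while Rbp4, a retinol carrier, was higher (0.19) and Wfs1 differed by -0.03. Their summed level, as log2, was 12.57 in LD, 12.40 in RUN, 12.30 in L-RUN, 12.48 in H-RUN and 12.69 in CE. The share of CA1 tissue in the pools was not measured, and its part in the falls was not tested. CA3 and CA2 markers were spread from Rgs14 (-0.15) to Pcp4 (0.24), and interneuron markers from Erbb4 (-0.17) to Sst.

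Among glial cells, astrocyte markers had a median of -0.07. The glutamate transporter genes Slc1a3 (-0.25) and Slc1a2 (-0.18) and the water channel gene Aqp4 (-0.16) were lower, Gjb6 (0.22) was higher and Gfap differed by -0.07. Of 20 microglial markers, 5 were lower by 0.15 or more and 0 higher, led by Ctss (-0.24) and Cd74 (-0.23), with the receptor genes Csf1r at -0.17 and P2ry12 at -0.17. Their median was -0.06, and -0.10 without the length trend. Myelin genes lay at a median of -0.05, with Ugt8a lowest (-0.22) and Mbp at -0.14, and endothelial markers at 0.0068. Pericyte markers ran from Rgs5 (-0.17) to Vtn (0.22), and ependymal markers from Rarres2 (-0.01) to Foxj1 (0.11).

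In the list of splicing genes, 75 of 79 were within 0.15 and Cwc22, a splicing factor that recruits the exon junction complex, fell (-0.37). It was at 13.68 in LD, 13.32 in RUN, 12.54 in L-RUN, 13.69 in H-RUN and 13.24 in CE, so that L-RUN and CE were low and H-RUN was at the level of LD. Glo1, which clears methylglyoxal, fell (-0.33), with 12.52 in LD, 12.19 in RUN, 12.05 in L-RUN, 12.27 in H-RUN and 12.09 in CE. Both genes are known to vary in copy number between mice, the pools held different mice of an outbred strain, and genotypes were not analysed here. The MHC genes ran from Cd74 to Psmb10 (0.15), and 9 of 20 were below the limit of expression.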

How the data were processed

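Polyadenylated RNA of mouse dentate gyrus was sequenced in 5 libraries. Per the labels and the study's methods, reads were called with CASAVA 1.8.2, mapped to mm10 with TopHat2 2.0.10, counted with HTSeq and transformed with DESeq2 1.10.1. The deposited values are regularized log values on the log2 scale, normalized and shrunk by the authors over the 5 libraries at once. They hold no counts, so the depth and the precision it gives are unknown and no count model was fitted.

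RUN minus LD was computed per gene symbol for genes with a mean of at least 5. The technical SD was computed from RUN minus the log2 of the averaged linear values of L-RUN plus H-RUN (median absolute deviation per decile of expression, with a variance factor of 2 over 1.5). Transcript lengths came from GENCODE vM21, with older symbols matched through RefSeq synonyms, and the trend was removed with lowess (fraction 0.3). Promoter windows came from RefSeq.

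Members and lists were chosen with earlier results of these data known. The genes named were the 20 largest rises and falls, list members past 0.3, the highest and lowest of each list and up to 4 more per list where roles needed them. Beyond these, the markers of the tissue check and the genes next to the minimum were named. Any others were chosen after their values were seen. Some genes that this rule names are not reported here. The calculation was tested on simulated data. Python 3.11.15, numpy 2.4.6, pandas 2.3.3 and statsmodels 0.14.6 were used.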

Additional observations from a re-analysis of the deposited data

Results flagged for a closer look

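Fibcd1 moved in opposite directions in the 2 housing groups that were compared with LD. The difference from LD was -0.46 in RUN and 0.31 in CE, beside -0.46 in L-RUN, -0.52 in H-RUN and a technical SD of 0.04. Both differences share the LD library, each rests on 1 library, and the difference between them was not tested.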

How the results depend on the processing

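With 1 library per group, no replicate could be left out. No paired analysis was possible because the groups hold 1 library each. A size of 0.4 gave 18 genes higher and 34 lower. Against a baseline averaged over LD and CE, 49 genes were lower and 867 passed 0.15 in size, and 35 were higher (41.7% of those called, beside 27.5%), and these held 40 of the 129 falls and 31 of the 49 rises. Removal of the length trend gave 65 lower, and of the length and then the GC trend, tried after seeing the data, 63 lower and 49 higher (43.8% higher) and 1007 past 0.15. CE alone as baseline, also tried after seeing the data, gave 73 lower, but only 18 of the 129 falls were among them, and 25 of the 49 rises were kept. Of the genes called against LD, 4 rises and 7 falls then had the opposite sign, namely Lgr6, Col1a2, Mt1 and Baiap3 among rises and Cwc22, Glo1, Gm14403, Pcgf3, Prmt8, Vps13c and 1700020I14Rik among falls. All other settings tried kept the counts within 1.5 times. Of 159 named genes, 0 changed sign past 0.3 under the planned settings, and 107 moved by more than the technical SD against LD and CE averaged, 95 without the length trend, 35 with RUN rebuilt from L-RUN and H-RUN, 15 after quantile normalization and 0 after centring on the median.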

Other observations

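Expressed genes, on a list or not, were also grouped by the stem of their symbols, for stems with at least 10 expressed members. Apart from the families already described, the highest medians of RUN minus LD were those of the long noncoding snoRNA host genes (Snhg, 10 genes, median 0.089, Snhg12 highest at 0.24) and of the histone genes (Hist, 13 genes, median 0.086, from Hist2h2bb at -0.06 to Hist1h1c at 0.30), which have short transcripts. Without the length trend the Snhg median was 0.040 and the histone median -0.0025. Among other stems, the Timm genes, which carry proteins into mitochondria, had a median of 0.067 over 13 members, and the mitochondrial ribosomal genes of the Mrpl stem 0.060 over 47. At the other end were the chromatin remodelers of the Chd stem (10 genes, median -0.12, Chd5 lowest at -0.21), the Dock exchange factors (11 genes, median -0.096), the Samd stem (10 genes, median -0.073) and the Cnot genes of the deadenylase complex (10 genes, median -0.069), with -0.032, -0.026, -0.031 and -0.052 after removal of the length trend. The Lrp stem, which the lipoprotein receptor list covers in part, had a median of -0.081 over 11 genes, and 0.0076 without that trend.

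Protein-coding genes held 48 of the rises and 127 of the falls. Of 101 lincRNA genes 1 fell, and of 88 antisense genes 0 rose or fell. By chromosome, the share of expressed genes past 0.3 ran from 0.652% on chromosome 19 to 2.71% on chromosome 1.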
